A study of Mus musculus with 23 samples.

Results

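The pools described here are the 11 libraries of CD103+ type 1 conventional dendritic cells (cDC1) taken from PGE2-deficient melanomas, divided by their own content of Ccl5 RNA. Ccl5-rich pools are the 6 with 20 or more raw Ccl5 counts, and Ccl5-poor pools are the 5 with 10 or fewer. No pool lay between the thresholds, so all 11 of the 11 PGE2-deficient pools, out of 23 pools in the series, were used. The other 12 pools came from control melanomas and serve as a background. Every mouse was a wild-type C57BL/6 animal. It had been injected under the skin with BRAFV600E melanoma cells, either a Ptgs1/Ptgs2 knockout (called PGE2-deficient in the labels) or the PGE2-producing control cells. The knockout concerns the cancer cells only, and host cells keep both genes, so these libraries hold no check of the deleted genes. On day 6, cells stained LiveDead−, CD45+, MHC-II+, CD11c+, CD103+ and CD11b− were sorted 10 to a pool. Each group had 4 mice, and a mouse gave 3 pools at most. RNA was read by Smart-seq3, which sequences whole transcripts from a few cells. The labels call the pools of a mouse technical replicates, so p-values over pools measure the spread between pools and not between animals.

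Ccl5 is a chemokine that draws T cells and NK cells. It is made by activated T cells and NK cells themselves and also by dendritic cells that have been stimulated. Dendritic cells that mature switch on a shared set of genes, among them the migration receptor gene Ccr7 and the actin-bundling gene Fscn1, and dividing cells are found mainly among immature ones. The comparison asks which of these go with Ccl5 from pool to pool: maturation, interferon response, or T cell and NK cell genes.

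The sets were chosen by measured Ccl5 counts, so the Ccl5 values are given as a description only. In CPM, a count divided by the pool's total and scaled to a fixed total, Ccl5-rich pools held 1851 in mouse 1 pool 3, 3533 and 4626 in mouse 2 pools 2 and 3, 5083 in mouse 3 pool 2, and 507 and 1044 in mouse 4 pools 1 and 3. Ccl5-poor pools held 235 and 17.7 in mouse 1 pools 1 and 2, 12.8 and 10.1 in mouse 3 pools 1 and 3, and 0 in mouse 4 pool 2. Nearest the thresholds were a Ccl5-rich pool with 25 raw counts and a Ccl5-poor pool with 8. In all, 829 counts lay in the Ccl5-rich pools, 11 in the Ccl5-poor pools and 11 in the 12 control pools, of which none held more than 5. Mice 1, 3 and 4 had pools of both kinds, so Ccl5 differed between pools of the same tumour. Mouse 2 had Ccl5-rich pools only, so it gives no difference within a mouse. Its pools still enter the gene filter, the scaling and the estimate of spread.

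**Figure D1:**
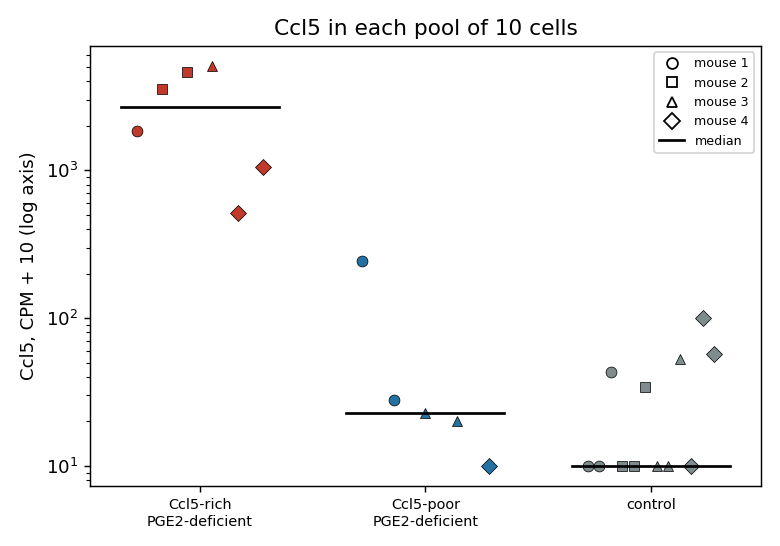
Ccl5 in each pool of 10 cells, as CPM + 10 on a log axis, for Ccl5-rich and Ccl5-poor pools of PGE2-deficient melanomas and for control pools. Each point is a pool, its shape gives the mouse number within its group, and the line is the median. Mice 1, 3 and 4 have points in both PGE2-deficient sets, whereas both pools of mouse 2 are Ccl5-rich.

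Totals ranged from 37341 to 53905 counts in Ccl5-rich pools, from 34088 to 98554 in Ccl5-poor pools and from 25571 to 57523 in control pools. The mean total was 47468 ± 6097 counts in Ccl5-rich pools (SD, n = 6) and 64973 ± 24375 in Ccl5-poor pools (SD, n = 5; exact permutation test, two-sided, p = 0.123, adjusted over 4 library measures 0.455). Without Ccl5-poor mouse 1 pool 1, the shallowest pool, the difference in mean total, Ccl5-rich minus Ccl5-poor, was −25226 counts (exact permutation test, adjusted p = 0.0191) and that in genes detected was −1185 (exact permutation test, adjusted p = 0.0381). Over all 11 pools neither difference passed the threshold, these permutations do not keep the mouse, and the part of depth in the results was not tested. The sorted identity was present in both sets: the 23 measured cDC1 identity genes summed to 7595 to 12346 CPM in Ccl5-rich pools, 8635 to 12358 in Ccl5-poor pools and 4067 to 8483 in control pools. Counts of T cell receptor and CD3 genes reached 10 or more in 3 of the 11 pools, with 14 in Ccl5-rich mouse 2 pool 2, and 14 and 29 in Ccl5-poor mouse 3 pool 3 and mouse 4 pool 2. The 10 neutrophil genes and 7 mast cell and basophil genes looked for are not among the genes counted, so they have no values. Of 9 melanoma genes 2 were measured, with 0 counts in Ccl5-rich pools, 1 in Ccl5-poor pools and 9 in control pools.

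Few genes differed between the sets. With the mouse as a block, 3016 genes had enough counts to test, and edgeR's quasi-likelihood test with Benjamini-Hochberg adjustment called 0 genes higher in Ccl5-rich pools (0%) and 3 lower (0.0995%). At an unadjusted p under 0.05, 73 genes were higher (2.42%) and 70 lower (2.32%), together 4.74% of the genes tested. DESeq2 called 0 higher and 2 lower. All 3 called genes, Pclaf, Smc4 and Hist1h2ap, have roles in DNA replication or chromosome packaging. At this filter none of the 34 tested maturation, 41 type I interferon and 14 interferon gamma genes was called in either direction. T cell and NK cell genes were hardly tested. The filter passed 0 of 11 T cell receptor and CD3 genes, 1 of 18 other T cell genes and 2 of 18 NK and cytotoxic genes. None of these was called, which says little about the rest.

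Pclaf (ENSMUSG00000040204, chr9:65890237-65903266, plus strand, GRCm38) encodes a partner of the DNA polymerase clamp PCNA and is made in dividing cells. In Ccl5-rich pools it was 0 CPM in mouse 1 pool 3, 58.2 and 60.6 in mouse 2 pools 2 and 3, 0 in mouse 3 pool 2, and 0 in both pools of mouse 4. In Ccl5-poor pools it was 1027 and 159.5 CPM in mouse 1 pools 1 and 2, 333 and 355 in mouse 3 pools 1 and 3, and 329 in mouse 4 pool 2. Every Ccl5-poor pool lay above every Ccl5-rich pool. Of the 3016 genes, 13 were separated in this direction (0.431%) and 4 in the other (0.133%). Of those 13, 4 were cell cycle genes: Pclaf, Top2a, Nusap1 and Rrm1. In the mice with both kinds of pool, Pclaf had 0 counts in 4 Ccl5-rich pools and 124 in 5 Ccl5-poor pools, which is at least 23.4-fold lower when the Ccl5-rich sum is set to a floor of 3 counts over those pools. The fitted log2 fold change was −7.42 ± 1.05 (SE; edgeR adjusted p = 0.00145), a size that depends on the constant added to counts of 0. In control pools Pclaf had a median of 0 CPM and a range of 0 to 1057.

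Smc4 (ENSMUSG00000034349, chr3:69004738-69034623, plus strand) encodes a subunit of condensin, which packs chromosomes for mitosis. It was 46.3 CPM in Ccl5-rich mouse 1 pool 3, 252 and 141 in mouse 2, 0 in mouse 3 pool 2, and 20.3 and 26.8 in mouse 4. In Ccl5-poor pools it was 352 and 142 CPM in mouse 1, 167 and 284 in mouse 3, and 363.5 in mouse 4 pool 2. The sets overlapped only through mouse 2 pool 2, and mouse 2 pool 3 (141.4 CPM) lay just below the lowest Ccl5-poor pool (141.8 CPM). Within mice 1, 3 and 4 each Ccl5-rich pool lay below each Ccl5-poor pool. The log2 fold change was −3.56 ± 0.64 (edgeR adjusted p = 0.0154).

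Hist1h2ap (ENSMUSG00000094777, chr13:21833026-21833507, minus strand) is one of a cluster of near-identical histone H2A genes whose RNA is made during DNA synthesis. It was 69.4 CPM in Ccl5-rich mouse 1 pool 3, 58.2 and 303 in mouse 2, 55.7 in mouse 3 pool 2, and 40.6 and 134 in mouse 4. In Ccl5-poor pools it was 2288 and 779.7 CPM in mouse 1, 295 and 710.3 in mouse 3, and 259.6 in mouse 4. The sets overlapped only through Ccl5-rich mouse 2 pool 3, and the log2 fold change was −3.01 ± 0.60 (edgeR adjusted p = 0.0376). Its neighbours Hist1h2ao (−2.42, adjusted p = 0.378) and Hist1h2an (−5.57, adjusted p = 0.281) were not called, and reads may be divided among these copies in a way the counting does not show.

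These 3 calls did not survive every omission or setting. Pclaf lost its call without Ccl5-poor mouse 4 pool 2 (edgeR adjusted p = 0.0565), without mouse 3 (0.0923) and without mouse 4 (0.108), and kept it in the other 12 of 15 omissions of a pool or mouse. Smc4 kept its call in 8 of 15 and Hist1h2ap in 6 of 15. Smc4 was lost on leaving out any pool of mouse 4, pools 2 or 3 of mouse 3, or either mouse whole, and Hist1h2ap on leaving out mouse 1 pools 1 or 3, mouse 3 pools 2 or 3, mouse 4 pools 1 or 2, or mice 1, 3 or 4 whole. The Smc4 call was also lost with no replicate block (−1.60, edgeR adjusted p = 0.543) and with DESeq2 (−3.71, adjusted p = 0.0609), and the Hist1h2ap call with Ccl5-poor pools limited to 5 or fewer Ccl5 counts (−2.67, adjusted p = 0.0749). All 3 calls were lost with the log2 of Ccl5 CPM in place of the sets (edgeR adjusted p = 0.210 for Pclaf, 0.164 for Smc4 and 0.693 for Hist1h2ap). With Ccl5-rich pools limited to 100 or more Ccl5 counts, only mouse 3 kept both kinds of pool (Pclaf −7.36, Smc4 −6.76, Hist1h2ap −3.14). Without the 3 pools that held 10 or more T cell receptor and CD3 counts, none of the 3 genes was called (Pclaf −7.47 and Hist1h2ap −3.60, both with edgeR adjusted p = 0.0572, and Smc4 −3.13, adjusted p = 0.777). That omission left pools of both kinds in mice 1 and 3 only. Without the 4 pools that held 3 or more, log2 fold changes were −7.87 for Pclaf, −4.39 for Hist1h2ap and −2.30 for Smc4. In that fit only mouse 1 kept both kinds, so these values rest on its pool 3 against its pools 1 and 2.

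**Figure D2:**
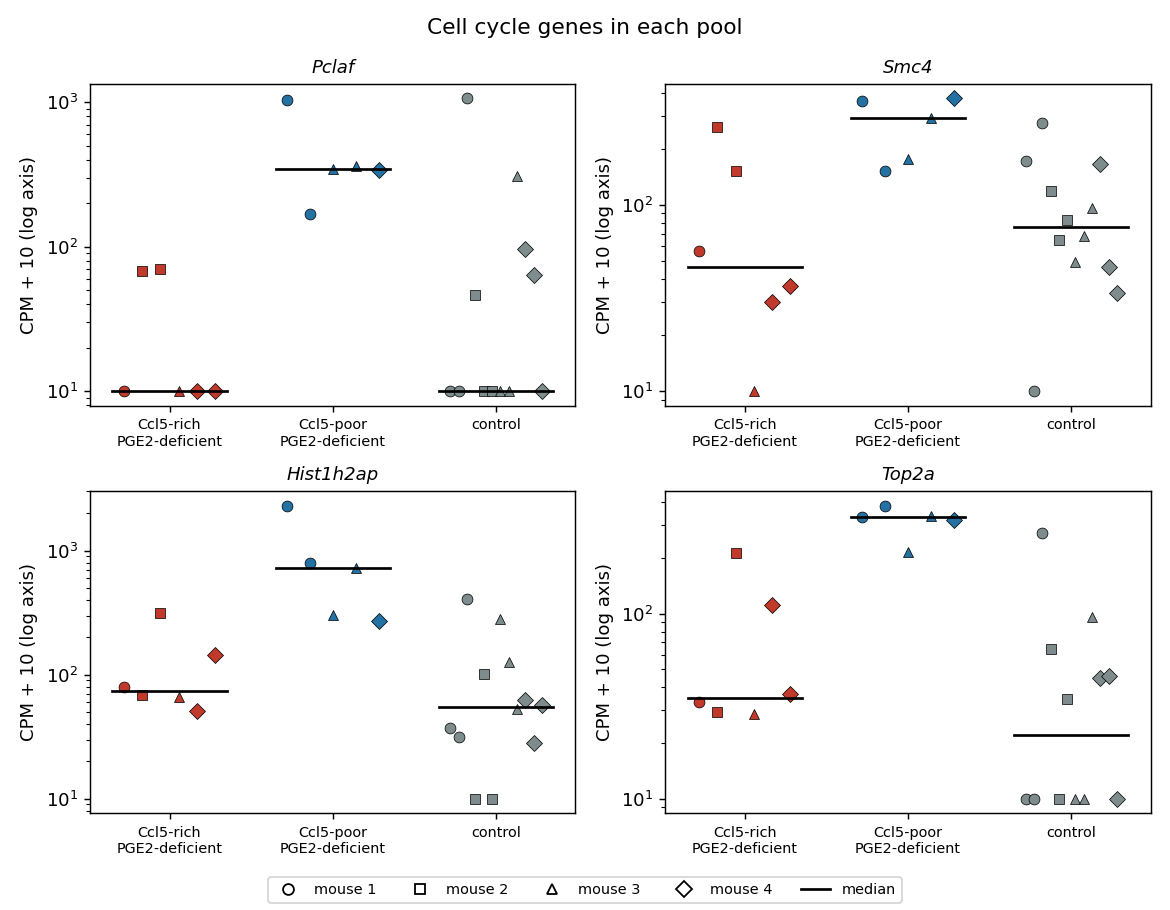
Pclaf, Smc4, Hist1h2ap and Top2a in each pool, as CPM + 10 on a log axis, for Ccl5-rich and Ccl5-poor pools of PGE2-deficient melanomas and for control pools. Points are pools, shapes are mouse numbers and lines are medians. For Pclaf and Top2a all 6 Ccl5-rich pools lie below all 5 Ccl5-poor pools. In mouse 2, pool 2 for Smc4 and pool 3 for Hist1h2ap reach into the Ccl5-poor range.

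All 21 tested members of the 30 cell cycle genes had negative log2 fold changes, as did 1534 of all 3016 tested genes. The filter took counts over both sets together. Members with few counts in Ccl5-rich pools, such as Nusap1 (1 count, against 33 in Ccl5-poor pools), passed it through the Ccl5-poor pools. The signs and the median therefore describe only the members that passed. Of the 21 tested members 1, Pclaf, was called, 12 had an unadjusted p under 0.05, beside 2.32% of all tested genes, and 9 did not. The median log2 fold change was −1.58, against −0.01 over all 3016 genes. Pclaf and Nusap1 had 0 counts in the Ccl5-rich pools of mice 1, 3 and 4. Setting them to their bounds could not move the median, since both bounds lie below it. The median was −0.98 with no replicate block and −0.49 over the members that passed filterByExpr. Without the 3 pools of 10 or more T cell receptor and CD3 counts the median was −1.89, from mice 1 and 3. Without the 4 pools of 3 or more it was −1.90, from mouse 1 alone. Those T cell genes held 17 counts in Ccl5-rich pools and 44 in Ccl5-poor pools. The summed list was 1920 CPM in Ccl5-rich mouse 1 pool 3, 2757 and 6646 in mouse 2 pools 2 and 3, 3302 in mouse 3 pool 2, and 3832 and 2544 in mouse 4 pools 1 and 3. In Ccl5-poor pools the sum was 8654 and 4749 CPM in mouse 1 pools 1 and 2, 5165 and 7204 in mouse 3 pools 1 and 3, and 5902 in mouse 4 pool 2. Only Ccl5-rich mouse 2 pool 3 reached the Ccl5-poor range. In a pool of 10 cells, fewer dividing cells and less of this RNA per cell cannot be told apart.

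Among members that were not called, Top2a, the topoisomerase that untangles replicated DNA, had the smallest p. It was 23.1 CPM in Ccl5-rich mouse 1 pool 3, 19.4 and 202 in mouse 2, 18.6 in mouse 3, and 101 and 26.8 in mouse 4, against 323 and 372 in Ccl5-poor mouse 1, 205 and 325 in mouse 3, and 312 in mouse 4. The sets did not overlap, and the log2 fold change was −2.89 ± 0.62 (edgeR adjusted p = 0.0643). Nusap1, a spindle protein gene, had 1 count in Ccl5-rich pools and 33 in Ccl5-poor pools (−5.26, adjusted p = 0.221). Birc5, which encodes the mitotic protein survivin, had 7 counts in Ccl5-rich pools and 51 in Ccl5-poor pools (−3.67, adjusted p = 0.163). Hmgb2, a chromatin protein gene, had 95 and 192 counts in the same order of sets (−1.84, adjusted p = 0.135). The proliferation marker gene Mki67 differed less in raw counts, with 26 in Ccl5-rich and 34 in Ccl5-poor pools (−2.19, adjusted p = 0.774). Rrm1, a subunit gene of the enzyme that makes deoxynucleotides, had 6 counts in Ccl5-rich pools and 40 in Ccl5-poor pools (−2.89, adjusted p = 0.509). At the other end of the list, the replication helicase genes Mcm6 (−0.26) and Mcm4 (−0.29) had the smallest differences, each with an edgeR adjusted p of 0.997.

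Promoters were looked up for Ccl5, for the called genes Pclaf, Smc4 and Hist1h2ap, and for Top2a. Of the cell cycle members not called, Top2a had the smallest p. The promoter set used had no entry for Ccl5, Smc4 or Hist1h2ap, so only the promoters of Pclaf and Top2a are shown. Both are given 5′ to 3′ from RefSeq (GRCm38.p6), from 250 bases before to 50 bases after the annotated start. Capitals mark the CCAAT box on either strand (CCAAT or ATTGG), the element bound by the factor NF-Y, and the cell cycle homology region on either strand (TTTGAA or TTCAAA), an element of many late cell cycle promoters. The Pclaf promoter is chr9:65890073-65890372 on the plus strand, and that of Top2a is chr11:99024140-99024439 on the minus strand.
Pclaf: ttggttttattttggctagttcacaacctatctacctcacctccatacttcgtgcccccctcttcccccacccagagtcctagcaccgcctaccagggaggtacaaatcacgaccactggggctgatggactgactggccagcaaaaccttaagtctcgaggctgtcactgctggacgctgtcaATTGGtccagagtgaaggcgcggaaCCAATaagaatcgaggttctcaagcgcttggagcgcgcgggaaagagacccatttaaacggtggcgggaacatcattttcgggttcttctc
Top2a: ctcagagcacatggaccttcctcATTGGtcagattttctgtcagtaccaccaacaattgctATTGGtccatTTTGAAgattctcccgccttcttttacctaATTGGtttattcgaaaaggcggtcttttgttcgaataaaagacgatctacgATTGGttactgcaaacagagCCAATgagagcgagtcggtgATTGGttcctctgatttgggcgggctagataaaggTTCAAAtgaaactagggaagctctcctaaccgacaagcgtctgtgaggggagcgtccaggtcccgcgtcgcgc
The Pclaf window holds 2 CCAAT boxes, at −66 and −41 from the start, and no cell cycle homology region. The Top2a window holds 6 CCAAT boxes and a cell cycle homology region at −179 and at −23. None of these matches overlaps another. Neither window holds the E2F-like motif in the spelling TTTNGCGC, searched on both strands, which is found in 1.376% of the 32851 promoters of the table. Other spellings of the E2F site or of the cell cycle homology region were not searched, so their absence is not shown. A CCAAT box is found in 37.41% of all promoters of this length, and a cell cycle homology region in 17.89%. Of the 21 tested cell cycle members 18 had a promoter in the table. In 13 of the 18 (72.2%) at least 1 promoter held 2 or more CCAAT boxes, against 11.7% of all promoters. The spelling TTTNGCGC was found in 4 of the 18, and TTTGAA in 5. Members were counted as genes, by any of their promoters, whereas the shares over all promoters count each promoter singly. A match is a description of the letters and shows neither binding nor a reason for the values.

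Most maturation genes had positive log2 fold changes in Ccl5-rich over Ccl5-poor pools, but none was called at the filter of 30 counts over the 11 pools. With a filter of 10 counts, Serpinb6b (2.30, edgeR adjusted p = 4.75e-05) and Fscn1 (1.99, adjusted p = 0.0129) were called higher in Ccl5-rich pools. With no filter beyond 1 count Serpinb6b was called (2.17, edgeR adjusted p = 0.000811) and Fscn1 was not (1.85, adjusted p = 0.123). Of the list of 53, 34 were tested at the filter of 30 counts. Log2 fold changes were positive for 28 and negative for 6, with a median of 0.70, and were positive for 1482 of all 3016 tested genes. Some members, such as Cd63 (59 counts in Ccl5-rich and 14 in Ccl5-poor pools), passed the filter through the Ccl5-rich pools. An unadjusted p under 0.05 was found for 6 members, all higher in Ccl5-rich pools, beside 2.42% of all tested genes. The 6 were Serpinb6b, Fscn1, Cacnb3, Cd63, Traf1 and Tmem123. The summed list ranged from 5584 to 12827 CPM in Ccl5-rich pools and from 1679 to 11412 CPM in Ccl5-poor pools, so the sets overlapped widely. The lowest Ccl5-poor sums, 1837 CPM in mouse 3 pool 3 and 1679 in mouse 4 pool 2, belonged to the pools with 14 and 29 T cell receptor and CD3 counts.

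Serpinb6b, a protease inhibitor gene counted among the maturation genes of cDC1, had the smallest p of any gene that was higher. It was 509 CPM in Ccl5-rich mouse 1 pool 3, 777 and 1071 in mouse 2, 723.5 in mouse 3 pool 2, and 365 and 375 in mouse 4. In Ccl5-poor pools it was 528 and 159.5 CPM in mouse 1, 154 and 10.1 in mouse 3, and 17.3 in mouse 4 pool 2. The sets overlapped through Ccl5-poor mouse 1 pool 1, which also had the highest Ccl5 of its set. The log2 fold change was 2.31 ± 0.55 (edgeR adjusted p = 0.155), with higher means in Ccl5-rich pools in 3 of 3 mice. It was called without mouse 1 pool 1 (2.81, adjusted p = 0.0351), without mouse 1 pool 3 (3.40, 0.0255), without mouse 1 whole (3.43, 0.0365) and with the log2 of Ccl5 CPM in place of the sets (0.36 per doubling of Ccl5, adjusted p = 0.00841). Without the 3 pools with 10 or more T cell receptor and CD3 counts it was 1.32 (edgeR adjusted p = 0.948). Without the 4 pools with 3 or more it was 0.64, from mouse 1 alone.

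Fscn1 had 462.7 CPM in Ccl5-rich mouse 1 pool 3, 641 and 727 in mouse 2, 186 in mouse 3, and 243 and 964 in mouse 4. Ccl5-poor pools had 499 and 177 CPM in mouse 1, 103 and 0 in mouse 3, and 0 in mouse 4. The ranges overlapped, and the log2 fold change of 1.98 ± 0.70 was not called at the filter of 30 counts (edgeR adjusted p = 0.774). Without the pools with 10 or more T cell receptor and CD3 counts it was 0.62 (edgeR adjusted p = 0.990). Without those with 3 or more it was 0.52, from mouse 1 alone. Some other maturation genes had log2 fold changes of similar size and were not called. Cd63 was 1.97 (59 counts in Ccl5-rich and 14 in Ccl5-poor pools, edgeR adjusted p = 0.890). Cacnb3 was 1.78 (71 and 26 counts in the same order, adjusted p = 0.776). Ccr7, Il12b and Ccl22 had smaller ones. Ccr7, which guides dendritic cells to lymph nodes, had 106 counts in Ccl5-rich pools and 93 in Ccl5-poor pools (log2 fold change 0.61 ± 0.84, adjusted p = 0.997). The highest Ccr7 pools of the sets were close, with 727 CPM in Ccl5-rich mouse 2 pool 3 and 667 CPM in Ccl5-poor mouse 3 pool 1. Il12b, the gene of the shared subunit of interleukin-12 and interleukin-23, was 1041 and 20.2 CPM in Ccl5-rich mouse 1 pool 3 and mouse 2 pool 3, which lie at the ends of its range there. In Ccl5-poor pools Il12b was 880.1 and 851 CPM in mouse 1, 167 and 0 in mouse 3, and 0 in mouse 4 (log2 fold change 0.91 ± 0.75, adjusted p = 0.997). Ccl22, a chemokine gene of mature dendritic cells, had 82 counts in Ccl5-rich pools and 53 in Ccl5-poor pools (1.18 ± 0.81, adjusted p = 0.997). Fscn1, Ccl22 and Il12b were all at 0 in Ccl5-poor mouse 3 pool 3 and mouse 4 pool 2, where a count of 0 allows up to 30.4 and 51.9 CPM (3 counts of the total, for counting error only).

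Without the 3 pools with 10 or more T cell receptor and CD3 counts, which include both of those, the median log2 fold change of the tested maturation genes was −0.06. Without the 4 pools with 3 or more it was 0.01. Pools of both kinds were then left in mice 1 and 3 for the first value and in mouse 1 alone for the second. The part of T cells in the maturation values was not tested further.

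**Figure D3:**
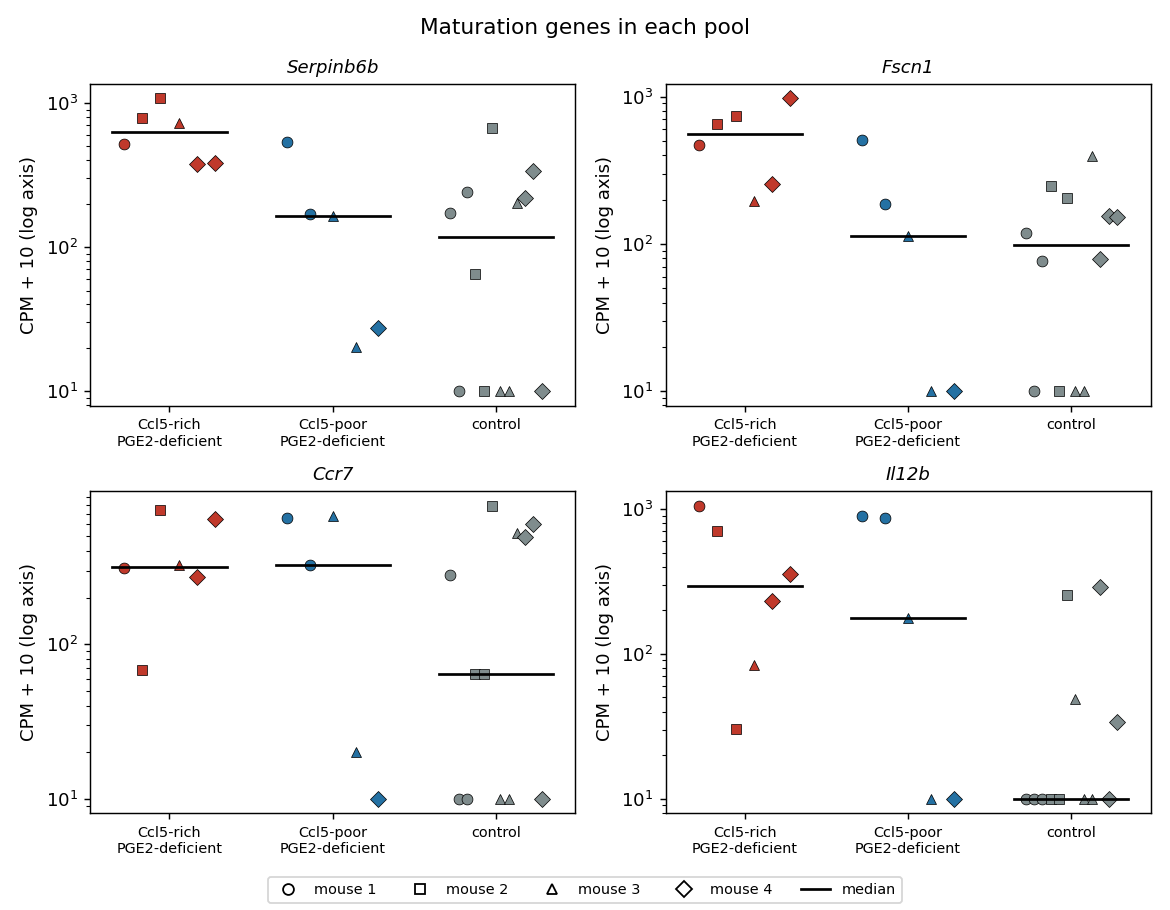
Serpinb6b, Fscn1, Ccr7 and Il12b in each pool, as CPM + 10 on a log axis, for Ccl5-rich and Ccl5-poor pools of PGE2-deficient melanomas and for control pools. Points are pools, shapes are mouse numbers and lines are medians. Serpinb6b and Fscn1 have higher medians in Ccl5-rich pools (616 and 552 CPM) than in Ccl5-poor pools (154 and 103 CPM), and the pools overlap in all 4 genes.

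No interferon response gene was called between the sets. Of 41 tested type I interferon genes, none was called, 1 was higher and 3 were lower at an unadjusted p under 0.05, and the median log2 fold change was −0.06. Isg15, a ubiquitin-like gene among the first to respond to interferon, ranged from 38.8 to 848 CPM with a median of 364 in Ccl5-rich pools, and from 147 to 656 CPM with a median of 231 in Ccl5-poor pools (log2 fold change 0.02 ± 0.58, edgeR adjusted p = 0.997). Ifi27l2a had 429 counts in Ccl5-rich pools and 451 in Ccl5-poor pools (0.66 ± 0.38, adjusted p = 0.997). Irf7, the factor that amplifies the interferon response, leaned the other way, with 42 counts in Ccl5-rich pools and 108 in Ccl5-poor pools (−1.07 ± 0.51, adjusted p = 0.997). Ly6e had the smallest p of the list (−1.04 ± 0.30, adjusted p = 0.388). The 14 tested genes of the interferon gamma response had a median of 0.00, with 7 positive and 7 negative. Cxcl10, an interferon-induced chemokine, was below the filter with 6 counts in Ccl5-rich and 5 in Ccl5-poor pools, and Gbp2 with 19 and 4 in the same order.

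Genes of MHC class I presentation, which load peptide for CD8 T cells, had positive log2 fold changes for 17 of 21 tested members. Over all 3016 tested genes 1482 were positive. The list had a median of 0.34 and none called. Without the 3 pools with 10 or more T cell receptor and CD3 counts the median was 0.36, from mice 1 and 3. Without the 4 pools with 3 or more it was 0.10, from mouse 1 alone. Their sum was 11358 CPM in Ccl5-rich mouse 1 pool 3, 12347 and 21391 in mouse 2, 12169.6 in mouse 3, and 10969 and 11729.7 in mouse 4. In Ccl5-poor pools it was 10121 and 9729 CPM in mouse 1, 8998 and 9436 in mouse 3, and 9502 in mouse 4, so every Ccl5-rich pool lay above every Ccl5-poor pool. No single member was separated in this way: B2m, the light chain, had 3467 to 9554 CPM in Ccl5-rich pools and 2747 to 3815 in Ccl5-poor pools (0.37 ± 0.21, edgeR adjusted p = 0.997). Tap1, a subunit of the peptide transporter, had 175 to 303 CPM in Ccl5-rich pools and 121 to 177 in Ccl5-poor pools (0.76 ± 0.40, adjusted p = 0.997). The 12 tested MHC class II genes had a median of −0.08.

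**Figure D4:**
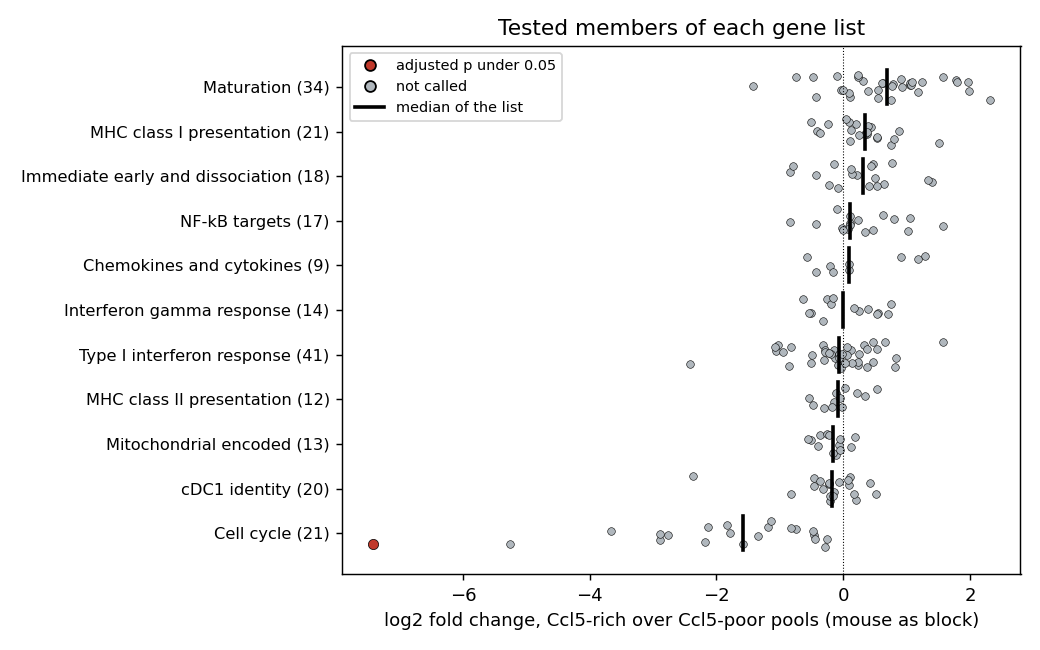
Log2 fold change of Ccl5-rich over Ccl5-poor pools, with the mouse as a block, for the tested members of 11 gene lists (number tested in brackets). Each point is a gene, vertical offsets within a list are for legibility, and the bar is the list median. All 21 cell cycle genes lie below 0 with a median of −1.58, the maturation median is 0.70, and Pclaf is the only called member of these lists.

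T cell genes were not higher where Ccl5 was high. The 7 measured genes for T cell receptor chains and CD3 were all below the filter, with 17 counts in Ccl5-rich pools, 44 in Ccl5-poor pools and 12 in control pools. By pool, Ccl5-rich pools had 0 in mouse 1 pool 3, 14 and 0 in mouse 2 pools 2 and 3, 3 in mouse 3 pool 2, and 0 in both pools of mouse 4. Ccl5-poor pools had 0 in both pools of mouse 1, 1 and 14 in mouse 3 pools 1 and 3, and 29 in mouse 4 pool 2. The pool with the most T cell receptor and CD3 counts thus had 0 Ccl5 counts, and 4 of the 6 Ccl5-rich pools had 0 of them, among these mouse 2 pool 3 with 229 Ccl5 counts. The defining gene Cd3e had 1 count in Ccl5-rich pools and 5 in Ccl5-poor pools, and Trbc2, a receptor beta chain gene, had 6 and 12 in the same order. As summed CPM the list ranged from 0 to 272 in Ccl5-rich pools, from 0 to 502 in Ccl5-poor pools and from 0 to 261 in control pools.

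NK cell and cytotoxic genes were likewise present in both sets. Their 7 measured members summed to 134 to 835 CPM in Ccl5-rich pools and 294 to 615 in Ccl5-poor pools, with 107 and 139 counts. In mice 1, 3 and 4 each Ccl5-rich pool (134 to 278 CPM) lay below each Ccl5-poor pool (294 to 615 CPM), whereas mouse 2 pools 2 and 3 had 835 and 566 CPM. Klrk1, a receptor gene of the list, gave 74 of the 107 Ccl5-rich counts and 97 of the 139 Ccl5-poor counts. Klrd1, an NK receptor subunit also known as CD94, had 27 counts in Ccl5-rich pools, 23 of them in mouse 2 pool 2, and 19 in Ccl5-poor pools (log2 fold change −3.41 ± 1.20, edgeR adjusted p = 0.774). Klrd1 was also found in 11 of the 12 control pools. The sum thus follows mainly these 2 receptor genes, and which cells made their RNA was not tested. Gzmb, the cytotoxic protease gene, was below the filter with 4 counts in Ccl5-rich pools and 15 in Ccl5-poor pools, of which 14 were in mouse 3 pool 3. Ccl4, a chemokine that T cells and NK cells often make together with Ccl5, had 152 counts in Ccl5-rich pools and 294 in Ccl5-poor pools (−0.57 ± 0.50, adjusted p = 0.997).

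**Figure D5:**
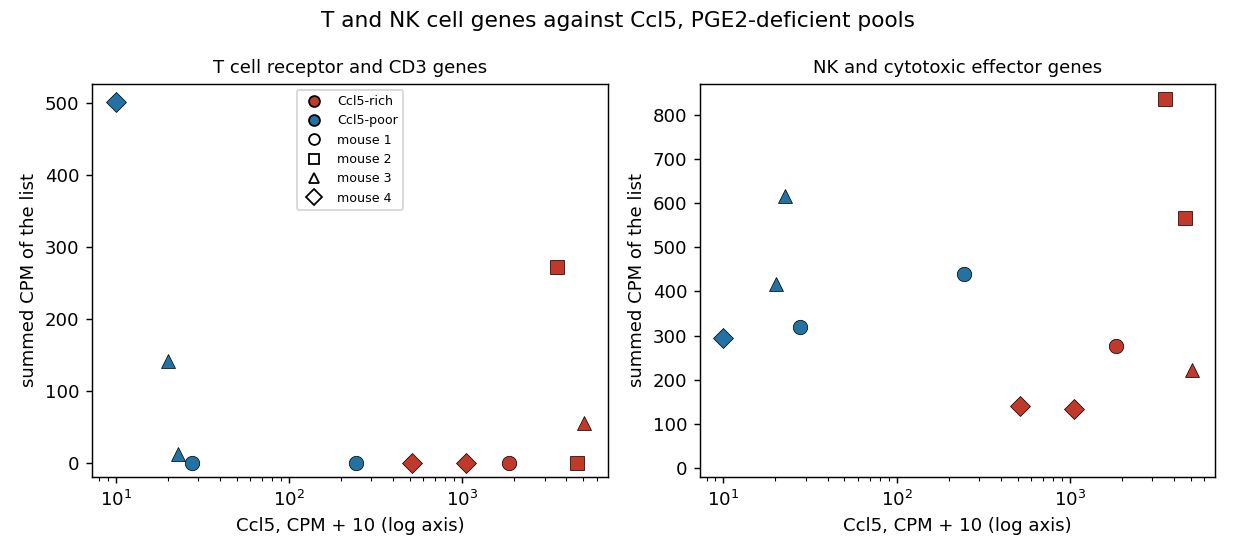
Summed CPM of T cell receptor and CD3 genes (left) and of the NK cell and cytotoxic genes (right) against Ccl5 as CPM + 10 on a log axis, for the 11 PGE2-deficient pools. Each point is a pool, colour gives the set and shape the mouse. The highest T cell value, 502 CPM, is in the pool with 0 Ccl5, and 4 of the 6 Ccl5-rich pools are at 0 for these genes.

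The genes whose CPM followed Ccl5 most closely over the 11 pools were Serpinb6b (Spearman correlation 0.91), Ramp3 (0.86), Tap1 (0.84), the predicted gene Gm15536 (0.83) and Pfkfb3 (0.80). The lowest correlations were those of Itgax (−0.87), Gm6988 (−0.84) and Hspa4 (−0.83). These are descriptions over pools that share mice and differ in depth, and were picked as the extremes of all tested genes. Itgax encodes CD11c, which was used in the sort, and it had 6 counts in Ccl5-rich pools and 37 in Ccl5-poor pools (log2 fold change −2.37 ± 0.90, edgeR adjusted p = 0.870). Ctsz, a lysosomal protease gene, was one of the 4 genes with every Ccl5-rich pool above every Ccl5-poor pool, at 231 to 445 CPM and 53.2 to 179 CPM (1.44 ± 0.39, adjusted p = 0.281). No identity gene of cDC1 was called: Xcr1, the receptor for the chemokine XCL1, had medians of 242 CPM in Ccl5-rich pools and 256 in Ccl5-poor pools (−0.46 ± 0.37, adjusted p = 0.997), and Irf8, the factor that specifies cDC1, had 1194 and 1359 CPM in the same order (−0.21 ± 0.24, adjusted p = 0.997).

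Ccl5-poor pools of PGE2-deficient melanomas, summed per mouse (n = 3 mice), were also set against the control pools summed per mouse (n = 4). This comparison asks which differences are present without Ccl5-rich pools, and it shares its Ccl5-poor pools with the comparison above. Of 3872 genes tested, edgeR called 39 higher (1.01%) and 32 lower (0.826%) in Ccl5-poor pools. In Ccl5-poor pools, with 11 Ccl5 counts in 5 pools, 13 of 41 tested type I interferon genes were called higher than in control pools, 0 lower and 28 in neither direction, with a median log2 fold change of 1.21 against −0.03 over all genes. Markers of other cell types moved with these sets. Of genes of type 2 conventional dendritic cells (cDC2) 3 of 6 tested were called lower in Ccl5-poor pools (median −1.72), of plasmacytoid dendritic cell (pDC) genes 1 of 3 (−2.57) and of macrophage and monocyte genes 1 of 5 (−0.60). Summed by pool, cDC2 genes were 86.5 to 254 CPM in Ccl5-poor pools and 231 to 887 in control pools, pDC genes 58.7 to 365 and 54.1 to 2171 in the same order, and macrophage and monocyte genes 167 to 1073 and 261 to 4868. Their part in the interferon and cell cycle values was not tested. By pool, Isg15 had a median of 231 CPM in Ccl5-poor pools (147 to 656) and 30.01 in control pools (0 to 236), and Xcr1 256 in Ccl5-poor pools (205 to 485) and 27.1 in control pools (0 to 194). In log2 fold change over mice, Isg15 was 2.42 ± 0.43 (edgeR adjusted p = 0.00191), Ifi27l2a 2.14 ± 0.34 (0.000532) and Irf7 1.87 ± 0.45 (0.0215). Xcr1 was higher by 2.36 ± 0.44 (adjusted p = 0.00239), a call that was lost without the pools of 10 or more T cell receptor and CD3 counts (1.97, edgeR adjusted p = 0.0730). The Irf7 call was lost without control mouse 2 (1.47, adjusted p = 0.0594), control mouse 4 (1.74, 0.0878) or Ccl5-poor mouse 3 (1.57, 0.144), and with DESeq2 (adjusted p = 0.440).

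Of 22 tested cell cycle genes 7 were called higher in Ccl5-poor pools than in control pools, 0 lower and 15 in neither direction, with a median of 1.37. T cell receptor and CD3 counts were 44 in the 5 Ccl5-poor pools and 12 in the 12 control pools. Without the 2 Ccl5-poor pools and 1 control pool with 10 or more of them, which leaves 2 Ccl5-poor mice and 4 control mice, edgeR called 3 of 17 tested cell cycle genes higher and 0 lower (median 1.34), and 9 of 29 tested type I interferon genes higher and 0 lower (median 1.14). Over all 3072 genes tested there, 27 were called higher and 15 lower. Top2a was 2.94 ± 0.39 (edgeR adjusted p = 0.000225) and Birc5 3.48 ± 0.64 (0.00233), and outside the list Hist1h2ap was 3.19 ± 0.46 (0.000225) and Smc4 1.52 ± 0.34 (0.0160). Pclaf was 1.74 ± 0.48 and not called (adjusted p = 0.0563). It was called without control mouse 1 (2.69, adjusted p = 0.00112), but not on omission of any other mouse (edgeR adjusted p = 0.0630 to 0.214). Nor was Pclaf called with DESeq2 (adjusted p = 0.642) or without the pools of 10 or more T cell counts (edgeR adjusted p = 0.267). The Smc4 call was lost without control mouse 2, 3 or 4 or Ccl5-poor mouse 4 (1.35 to 1.51, adjusted p = 0.0527 to 0.0764), and without the pools of 10 or more T cell counts (0.98, adjusted p = 0.409). Top2a medians were 25.0 CPM in Ccl5-rich pools, 323 in Ccl5-poor pools and 12.2 in control pools, so the Ccl5-rich median lay nearer that of control pools. None of the 31 tested maturation genes was called in Ccl5-poor over control pools, with a median of 0.13, and none of 19 MHC class I genes, with a median of 0.39. Ifitm1 (−3.29 ± 0.46, adjusted p = 0.000225) and Il1b (−1.50 ± 0.22, adjusted p = 0.000225) were lower in Ccl5-poor pools than in control pools. In Ccl5-rich against Ccl5-poor pools, Ifitm1 (−0.94 ± 0.65) and Il1b (−0.43 ± 0.45) were not called (adjusted p = 0.997 each).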

How the data were processed

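The values are raw counts per gene and pool, as the authors deposited them, without normalization. Per the submitters' processing notes, reads were aligned with STAR 2.5.4b to GRCm38 (mm10). For the counting program, the annotation and the choice between molecules and reads, the answer is not given in the sources used here. The table had 13572 gene entries, 261 of them with no count, and 16 symbols that a spreadsheet had turned into dates were restored by identifier. No 2 of the 11 PGE2-deficient pools agreed within sampling noise, and the control pools were not checked for this.

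The members, the gene lists and the alternatives were chosen with earlier results of these data known, and the sets were chosen by measured Ccl5. Lists are therefore described by counts and medians, with no test. Pools were compared with edgeR 4.0.16 (quasi-likelihood F test, TMM scaling, two-sided, mouse as a block, Benjamini-Hochberg over all tested genes, threshold 0.05). Tested genes had at least 30 counts over the 11 pools and at least 1 in 3 of them, and Ccl5 was left out. The common biological coefficient of variation was 33.3%. Standard errors were derived from the F statistic and the fold change. CPM use plain pool totals. Ccl5-poor against control pools used counts summed per mouse with no block. In that comparison mouse numbers do not pair animals. Library measures were compared by exact permutation over 462 assignments. Alternatives were other scaling, filters, Ccl5 thresholds, no block, DESeq2 1.42.0, Ccl5 as a number, and omission of pools, mice or pools with T cell counts. The threshold of 10 T cell counts, and the omission of such pools from the comparison with control pools, were chosen after seeing the data.

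Genes named are up to 12 per direction by fold change among called genes or else by smallest p, a panel of dendritic cell, interferon, T cell and NK cell genes, the leading members of each list, and the genes with the highest and lowest correlation with Ccl5. The cell cycle members Mki67, Rrm1, Mcm4 and Mcm6, the NK list member Klrk1, and the 6 maturation genes at an unadjusted p under 0.05, were named after their values were seen. Promoters are from RefSeq (GRCm38.p6). R 4.3.3, Python 3.11.15 and matplotlib 3.10.9 were used.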

Additional observations from a re-analysis of the deposited data

Results flagged for a closer look

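Groups of pool values were searched for a pool apart from the others of its set, by its gap relative to the set's range. The cutoff gives about 1 in 20 by chance only for independent, normally distributed values. These groups are not independent, since B2m is part of the summed MHC class I list, and some rest on few counts. The number found therefore cannot be compared with that rate. Of 76 groups examined, 17 had a pool that stood apart. Ccl5-rich mouse 2 pool 3 was the high pool in 6 of them: Hist1h2ap at 303 CPM, Hmgb2 at 909 CPM, Nusap1 at 20.2 CPM (1 count), B2m at 9554 CPM, the summed interferon gamma list at 6080.1 CPM (the others 3308 to 3844) and the summed MHC class I list at 21391 CPM (the others 10969 to 12347). Ccl5-rich mouse 2 pool 2 was high for Ccl22 at 873.6 CPM, Klrd1 at 446.5 CPM and the summed T cell receptor and CD3 genes at 271.8 CPM. Ccl5-rich mouse 4 pool 3 was high for Itgax at 80.3 CPM.

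Among Ccl5-poor pools, mouse 1 pool 1, which had the highest Ccl5 and the lowest total of its set, was high for Pclaf at 1027 CPM, Hist1h2ap at 2288 CPM and Serpinb6b at 528.0 CPM. Mouse 1 pool 2 was high for Isg15 at 655.7 CPM and for the summed interferon gamma list at 5653 CPM. Mouse 3 pool 3 was high for Gzmb at 142.1 CPM (14 counts), and mouse 4 pool 2 for the summed T cell receptor and CD3 genes at 501.9 CPM.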

How the results depend on the processing

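Against 0 genes higher and 3 lower in Ccl5-rich pools, the counts were 3 and 9 with a filter of 10 counts in all, 1 and 9 with no filter, 0 and 0 with filterByExpr (371 genes tested), 1 and 2 with depth-scaled Ccl5 thresholds or Ccl5-poor at 5 or fewer counts, 0 and 0 with Ccl5-rich at 100 or more, and 1 and 0 with Ccl5 as a number. Ccl5-rich at 100 or more left both kinds of pool only in mouse 3, and leaving out pools of 3 or more T cell counts only in mouse 1. Without pools of 10 or more T cell counts the counts were 0 and 0 (2074 genes tested). With no replicate block they were 0 and 4, with Smc4 lost. Omitting a pool or mouse gave 0 to 1 higher and 0 to 5 lower, with 0 lower without mouse 4 pool 2, mouse 3 or mouse 4. In each of these fits that tested them, the 3 genes stayed lower.

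The cell cycle median was −0.98 with no replicate block, −0.49 with filterByExpr, and −2.21 to −1.11 over omissions. Over omissions the maturation median was 0.062 to 1.495, interferon gamma −0.15 to 0.54, and MHC class I 0.063 to 0.40. Summed NK genes, Ccl5-rich minus Ccl5-poor, differed by −54.2 CPM, by 124 at 100 or more Ccl5 counts, by −189.8 without pools of 10 or more T cell counts, and by −223 to 39.7 over omissions. Library differences ran over omissions from −25226 to −9109 counts in total, −1185 to −344 genes detected, and −1.63 to 0.41 percentage points of counts in the 50 top genes.

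For Ccl5-poor against control pools, 39 higher and 32 lower became 17 and 15 with the shared mouse number as a replicate block 30 and 17 with DESeq2, and 27 and 15 without pools of 3 or more, or 10 or more, T cell counts (the same pools). Over omitted mice they were 19 to 48 higher and 17 to 41 lower, lowest without control mouse 2 (19 and 18) for the first and without control mouse 4 (29 and 17) for the second. The numbers are not pairs: same-numbered mice correlated at −0.03 to 0.06, and 1 of 3 matched best with its own number. The causes of these shifts were not tested.

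Pools of 10 cells with 34088 to 98554 counts leave most chemokine, T cell and NK cell genes below the filter, so smaller differences in them were not detectable at this depth.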

Other observations

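Ccr2, a chemokine receptor gene of monocytes and some dendritic cells, had a log2 fold change of 0.93 ± 0.49 in Ccl5-rich over Ccl5-poor pools (edgeR adjusted p = 0.997). Genes of the prostaglandin and cyclic AMP list had a median log2 fold change of −0.29 over 8 tested members, with none called. Nr4a2, a nuclear receptor gene induced by cyclic AMP, was 1.30 ± 0.44 in Ccl5-rich over Ccl5-poor pools (edgeR adjusted p = 0.618), with higher means in Ccl5-rich pools in 3 of 3 mice. The 18 tested immediate early genes had a median of 0.31 and none called.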
